A study of Rattus norvegicus with 6 samples.

Results

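The C/EBP genes encode transcription factors named after the CCAAT sequence of promoters. The family as taken here has 7 genes, Cebpa, Cebpb, Cebpd, Cebpe, Cebpg, Cebpz and Ddit3, and was chosen by gene name. Each of the 7 genes was represented on the array, by 9 of 45598 probes in all, and 16581 genes were named in total. The members were found by matching the accession that the scanner files give for each probe to the RefSeq gene table of the GRCr8 rat assembly. Where a gene had more than 1 probe, the probe with the highest mean signal represented it.

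Neonatal rat ventricular cardiomyocytes (NRVCs) are heart muscle cells isolated from newborn animals, here rats of the Sprague-Dawley stock, 1 to 2 days old, with 8 to 10 hearts pooled per preparation. RNA came from 3 cultures in control medium and from 3 cultures given recombinant C3a protein at 0.5 µg/ml for 12 h, and all of them were grown on collagen-coated glass. C3a is the peptide released when complement factor C3 is cleaved, and its receptor is C3aR. The comparison asks which genes C3a changes in these cells. For each RNA 1 Agilent SurePrint G3 rat array was used, in a single colour. The sources used here do not state whether the cultures of a group came from separate preparations, so the p-values measure the spread between these samples, which may be technical.

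All 6 arrays lay on 1 slide scanned in 1 session, and each treatment occupied a side of its own, so that side and treatment cannot be told apart. Between 53.7% and 57.3% of the probes were well above background on 5 arrays, and 38.6% on control replicate 1, where the median local background was 47 intensity units against 23 or 24 elsewhere. Signals are given as log2 intensity minus the log2 of each array's 75th percentile, a level that lay between 207 and 367 intensity units. Of the markers of cardiomyocytes, 10 of 11 were on the array and all 10 were well above background on all 6 arrays. Fibroblast markers were also present, with 6 of 9 well above background on all 6 arrays, as were 5 of 7 endothelial and 2 of 9 macrophage markers. In such bulk RNA, fewer cells of a type and less RNA per cell cannot be told apart.

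C/EBP proteins bind DNA as dimers through a basic region and a leucine zipper, and members pair with one another. Cebpa drives the differentiation of fat, liver and myeloid cells and restrains their division. Cebpb and Cebpd are induced by cytokines and act in the acute phase response, and in the heart Cebpb is known as a brake on cardiomyocyte growth that is lowered by exercise. Cebpe acts in the maturation of granulocytes. Cebpg is a short form that pairs with other members, and Ddit3, also called CHOP, is a partner induced by the unfolded protein and integrated stress responses that keeps its dimers from classical C/EBP sites. Cebpz shares the name but has no leucine zipper of this type and belongs with the CCAAT-binding and nucleolar proteins.

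The promoters of 3 members are shown because the results turn on them: Cebpa had the largest difference with C3a, Cebpb was read by a pair of probes that differed, and Ddit3 gave the brightest signal. The windows are the 250 bases before the annotated start, read 5′ to 3′ in the direction of the gene, from RefSeq on GRCr8, at chr1:96896334-96896583 (+ strand) for Cebpa, chr3:176816755-176817004 (+ strand) for Cebpb and chr7:65001445-65001694 (+ strand) for Ddit3. Capitals mark matches on either strand to TTGCNNAA (a C/EBP site), TGACG (the core of the cyclic AMP response element, CRE), TGANTCA (an AP-1 site), CCAAT (the CCAAT box) and TATAAA (the TATA box), and no match overlapped another.
Cebpa: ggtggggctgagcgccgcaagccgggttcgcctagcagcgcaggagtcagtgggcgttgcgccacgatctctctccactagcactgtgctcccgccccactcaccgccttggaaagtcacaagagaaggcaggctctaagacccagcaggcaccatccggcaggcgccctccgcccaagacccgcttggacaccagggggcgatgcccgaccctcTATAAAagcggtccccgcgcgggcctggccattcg
Cebpb: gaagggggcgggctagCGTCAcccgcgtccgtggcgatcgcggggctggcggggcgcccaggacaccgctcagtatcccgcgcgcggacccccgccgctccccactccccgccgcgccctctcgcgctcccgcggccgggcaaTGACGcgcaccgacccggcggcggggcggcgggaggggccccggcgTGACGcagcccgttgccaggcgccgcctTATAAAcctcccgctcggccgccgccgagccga
Ddit3: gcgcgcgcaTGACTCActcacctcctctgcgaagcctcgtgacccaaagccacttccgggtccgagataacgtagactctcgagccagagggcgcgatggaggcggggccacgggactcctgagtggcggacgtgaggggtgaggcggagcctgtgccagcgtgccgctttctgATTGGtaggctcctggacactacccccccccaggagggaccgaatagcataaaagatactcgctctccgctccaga
Windows were held for 6 of the 7 members, all but Cebpd. A TATA box lay 35 to 30 bases before the start of Cebpa and 33 to 28 bases before that of Cebpb, and 12.9% of the 33469 promoters of the same length held this motif. The Cebpb window held 3 CRE cores, the nearest 61 to 57 bases before the start, and 18.2% of promoters held at least 1. Ddit3 held an AP-1 site 241 to 235 bases before its start, against 6.34% of promoters, and an inverted CCAAT box 76 to 72 bases before it, against 34% of promoters. In Cebpg, 2 inverted CCAAT boxes were found, and in Cebpe 1 AP-1 site. The C/EBP motif itself matched in 1 of the 6 windows, that of Cebpz, and in 9.22% of all promoters. The motif matches are descriptions of these letters and not of binding.

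The signals of the family spanned a wide range, and 6 of the 7 genes had a probe well above background on all 3 arrays of a condition. These 6 were among the 10390 genes, of 16581, that passed this filter. Ddit3 was brightest, followed by Cebpb and Cebpz, then Cebpg and Cebpd, then Cebpa, and last Cebpe. The mean intensity of the representative probe was 9559 units for Ddit3, 1425 for Cebpb, 990 for Cebpz, 435 for Cebpg, 417 for Cebpd and 47.4 for Cebpa, and Cebpe lay between 5.84 and 24.4 units on the 6 arrays. The order was the same on 4 of 6 arrays, and on C3a replicates 1 and 2 Cebpd lay above Cebpg, so that these neighbours did not differ beyond their spread. This is an order of probe signals and not of RNA amounts, since probes differ in how strongly they bind their target.

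**Figure D1:**
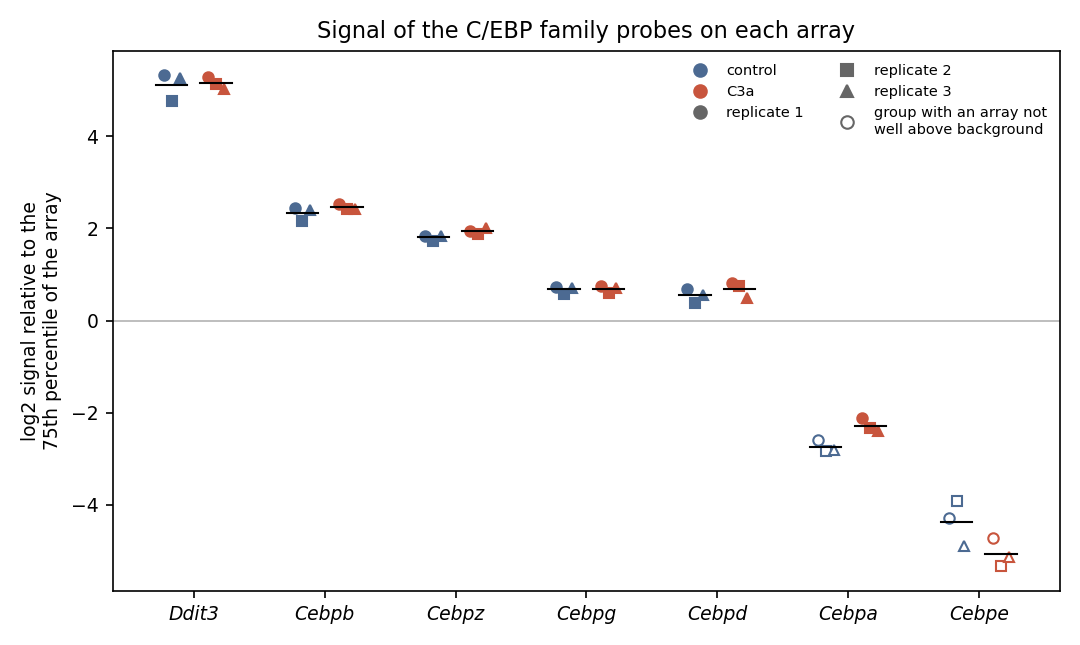
Signal of the representative probe of each C/EBP family gene on the 6 arrays, in log2 units after 75th percentile scaling (vertical axis), for control (blue) and C3a (red). Each marker is 1 array, its shape gives the replicate number, the line is the mean of 3 arrays, and open markers are groups in which at least 1 array was not well above background. The 3 Cebpa values with C3a lie above the 3 controls, while the values of Ddit3, Cebpb, Cebpg and Cebpd overlap between the conditions.

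The probes of Cebpb differed widely in signal. The brighter, A_64_P025118, lay above the other, A_44_P348922, by 3.96 to 4.55 on the log2 scale on the 6 arrays, or 21.0-fold on average. Both were well above background on all 6 arrays. They were matched to the same gene through different transcript records, and the source of the gap was not tested. The probes also differed in sign, with a C3a minus control difference of 0.13 (standard error 0.11) for the brighter and -0.13 (standard error 0.18) for the dimmer. Without a common scale between probes, no member can be called the most abundant from these arrays, although Ddit3 was the brightest.

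With C3a, 0 of the 6 measured family genes passed an adjusted p under 0.05 from limma, as did 0% of all genes, and adjusted p lay between 0.746 and 0.975. At an unadjusted p under 0.05 from limma, 1 of the 6, Cebpa, was higher and 0 were lower, against 2.89% of 10390 genes higher, 2.46% lower and 5.35% in either direction. Cebpa passed the background filter through the C3a arrays alone, and 10.6% of the 1832 genes that did so were higher at that threshold, so this count is no support for a change. All 6 differences were above 0, where 60.5% of all genes lay above 0, and their median was 0.13 against 0.04 for all genes. The median difference of the cell type markers varied with the cell type. It was 0.14 for the cardiomyocyte markers (7 of 10 above 0) and 0.14 for the endothelial markers (4 of 5 above 0). For the macrophage markers it was 0.16 (2 of 4 above 0), for the adipocyte markers -0.01 (1 of 2 above 0) and for the fibroblast markers -0.05 (2 of 9 above 0). The part of these cells in the family values was not tested. The 3 C3a arrays lay above the 3 controls for 2 of the 6, Cebpa and Cebpz, against 8.08% of all genes and 10.9% of the genes that passed like Cebpa, and below them for 0, against 4.88%.

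Cebpa was read by the probe A_44_P1088296 as -2.60, -2.84 and -2.81 in control replicates 1 to 3 and as -2.12, -2.33 and -2.40 in C3a replicates 1 to 3. The C3a arrays were high and the groups did not overlap. The mean was -2.75 ± 0.13 (SD, n = 3) without and -2.28 ± 0.15 (SD, n = 3) with C3a, a difference of 0.47 on the log2 scale or 1.38-fold, with a standard error of 0.12 and a 95% interval from 0.19 to 0.75. The adjusted p from limma was 0.746 and the unadjusted p 0.00561, and the two-sided exact permutation test gave p = 0.1, the smallest that 3 against 3 arrays allow. By replicate number the differences were 0.49, 0.50 and 0.42.

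The Cebpa signal was dim, at 38.3 to 57.1 intensity units. Before scaling the intensities were 44.9, 51.4 and 38.3 in the controls and 53.1, 57.1 and 39.3 with C3a, and on that scale the groups overlapped. On control replicate 1 the probe was not well above background: its signal of -2.60 was under the lowest signal called well above background on that array, -2.27, whereas that limit lay between -5.09 and -4.18 on the other arrays. Cebpa was thus kept through the arrays on which it was high. Of the 1832 genes kept in this way 4.20% were lower at an unadjusted p under 0.05, beside the 10.6% that were higher. Without control replicate 1 the Cebpa difference was 0.54 (unadjusted p = 0.00467, adjusted p = 0.676 from limma). That array held the highest of the 3 control values, so leaving it out raised the difference by construction. The other Cebpa probe, A_64_P025108, stayed under the background limit on all 6 arrays.

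Cebpz, which codes for a CCAAT-binding protein, read 1.84, 1.73 and 1.85 in control replicates 1 to 3 and 1.94, 1.87 and 2.01 with C3a. The C3a arrays lay above the controls, by a narrow margin, and 7.49% of the 8556 genes measured on all 6 arrays did so. The mean was 1.81 ± 0.06 (SD, n = 3) without and 1.94 ± 0.07 (SD, n = 3) with C3a, and the difference was 0.13 (standard error 0.09, adjusted p = 0.746 from limma). The 95% interval ran from -0.09 to 0.35. By replicate number the differences were 0.10, 0.14 and 0.16. The two-sided exact permutation test gave p = 0.1, the smallest possible.

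The cytokine-induced members gave overlapping groups. Cebpb read 2.44, 2.17 and 2.40 in control replicates 1 to 3 and 2.54, 2.42 and 2.43 with C3a by its brighter probe. Control replicate 2 was low, and the groups overlapped. By replicate number the Cebpb differences were 0.09, 0.25 and 0.03, all above 0. The Cebpb difference was 0.13, or 1.09-fold (95% interval -0.13 to 0.38, adjusted p = 0.761 from limma). Cebpd, read by A_42_P762829, gave 0.69, 0.38 and 0.56 in the controls and 0.82, 0.75 and 0.49 with C3a. Here 1 C3a array lay among the controls, and by replicate number the differences were 0.13, 0.37 and -0.08. The Cebpd difference was 0.14 (95% interval -0.17 to 0.45, adjusted p = 0.767 from limma).

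The probe for Cebpb was printed 10 times on each array, which shows the error of 1 measurement. The SD over the 10 spots of an array was 0.09 on the log2 scale on average, and the spots of control replicate 1 alone ran from 2.32 to 2.57. The difference between the conditions was 0.13, and the SD between the arrays was 0.15 in the controls and 0.07 with C3a. All other representative probes of the family had 1 spot per array, except that of Cebpd with 2.

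**Figure D2:**
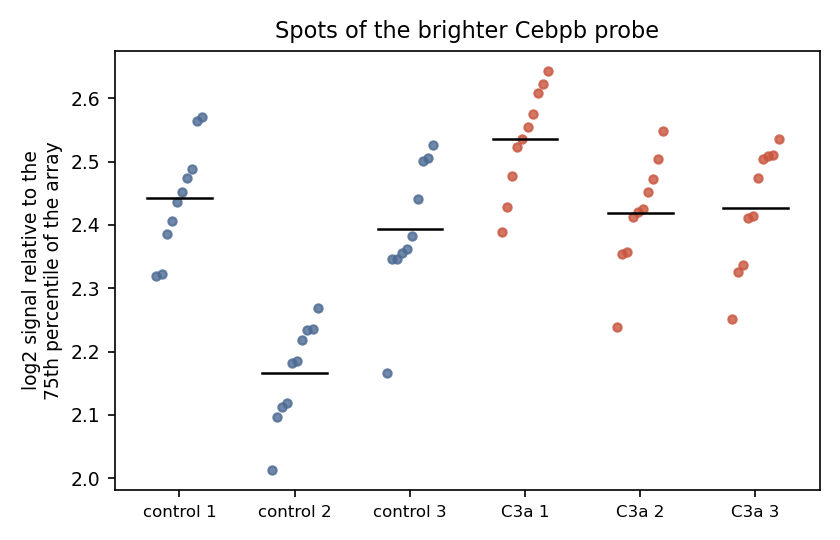
The 10 spots of the brighter Cebpb probe on each of the 6 arrays, in log2 units after 75th percentile scaling (vertical axis), with each spot as a point, sorted by value, and the line at the mean of the spots. The mean of control replicate 2 is lowest, and the spots of the other 5 arrays overlap. The highest spot of control replicate 2, 2.27, lies above the lowest spot of control replicate 3, 2.17. It also lies above the lowest spots of C3a replicates 2 and 3, 2.24 and 2.25.

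Ddit3, the stress-induced partner, was bright and spread widely. It read 5.33, 4.76 and 5.26 in control replicates 1 to 3 and 5.30, 5.15 and 5.04 with C3a, and the C3a arrays all lay within the range of the controls. By replicate number the differences were -0.03, 0.38 and -0.23. Its difference was 0.04, or 1.03-fold (standard error 0.17, 95% interval -0.35 to 0.44, adjusted p = 0.948 from limma). The residual SD of Ddit3 was 0.24, the widest of the 6 measured genes, against a median of 0.14 over all genes. Cebpg, the short partner, read 0.74, 0.58 and 0.71 in the controls and 0.76, 0.61 and 0.70 with C3a, and by replicate number the differences were 0.02, 0.02 and -0.01. Its difference was 0.01, or 1.01-fold (95% interval -0.22 to 0.24, adjusted p = 0.975 from limma), and its residual SD was 0.08. The intervals of Ddit3 and Cebpg include the differences measured for Cebpb, Cebpd and Cebpz.

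Cebpe, the granulocyte factor, reached the background limit on 1 control array and no C3a array, so it was not compared. Of 8 granulocyte markers, 7 were on the array, 6 of these were not well above background on any array, and none was so on all 3 arrays of a condition.

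**Figure D3:**
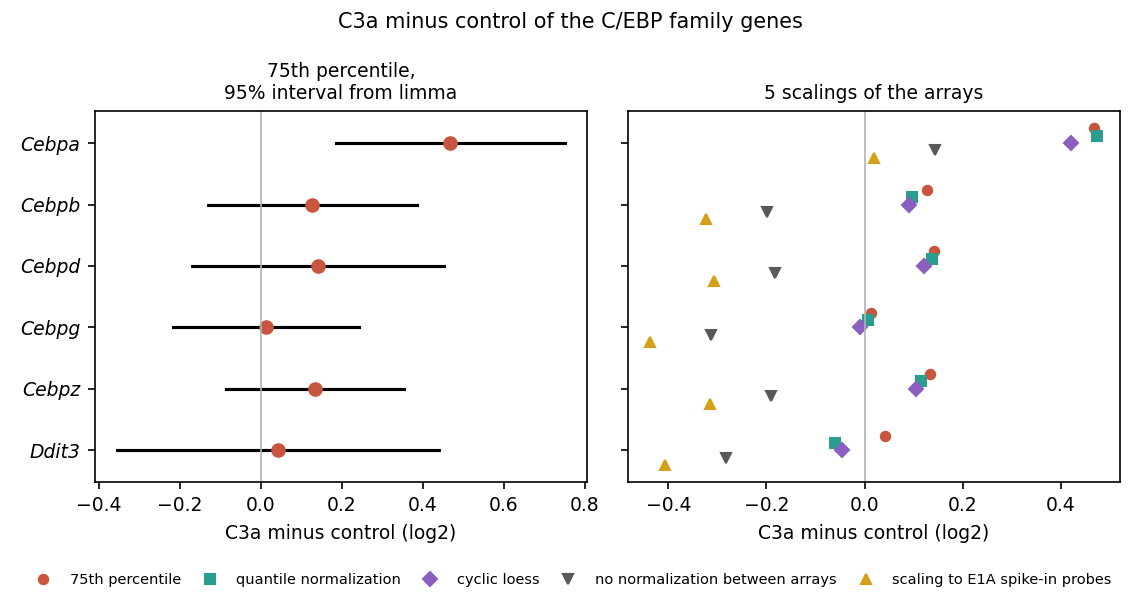
C3a minus control of the 6 measured C/EBP family genes on the log2 scale. Left, the difference after scaling to the 75th percentile with its 95% interval from limma (n = 3 arrays per group), where the interval of Cebpa runs from 0.19 to 0.75 and the other 5 include 0. The intervals are not adjusted for the number of probes. Cebpa passed the background filter through the C3a arrays alone, and its adjusted p from limma was 0.746. Right, the same difference under 5 scalings, where no normalization and spike-in scaling move every gene down and Cebpa stays at or above 0.02.

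The sign of 5 of the 6 differences depended on how the arrays were scaled. Without normalization between arrays the median of all probes moved from 0.05 to -0.28, and with scaling to E1A spike-in transcripts it moved to -0.40. There the differences of Cebpb, Cebpd, Cebpg, Cebpz and Ddit3 were below 0, between -0.20 and -0.18 for Cebpb, Cebpd and Cebpz without normalization, while Cebpa was at 0.14 and 0.02. A scale factor per array moves all probes alike, so differences taken relative to the median of all probes are the same under these scalings by construction. On that scale Cebpa was at 0.42 with 75th percentile scaling, at 0.25 with normexp background correction, at 0.45 with quantile normalization and at 0.35 without C3a replicate 1, its lowest value when an array was left out. Cebpd was at 0.09, Cebpz at 0.09, Cebpb at 0.08, Ddit3 at -0.0057 and Cebpg at -0.04. None of these differences passed the adjusted threshold.

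Differences between genes of the same array do not depend on a scale factor for the array. Cebpa minus Cebpg was -3.52 to -3.34 in the controls and -3.10 to -2.88 with C3a, which differ by 0.46 in the mean. The same quantity was 0.34 for Cebpa minus Cebpb, 0.33 for Cebpa minus Cebpd, 0.33 for Cebpa minus Cebpz and 0.43 for Cebpa minus Ddit3. In all 5 of these comparisons, which share Cebpa, the C3a arrays lay above the controls. The same held for Cebpa minus any gene in 74.9% of 10389 genes, which is the background for these 5. Of the 10 pairs without Cebpa, 2 did not overlap between conditions, Cebpb minus Cebpg (0.11) and Cebpg minus Cebpz (-0.12), against 14.3% of all pairs of genes.

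**Figure D4:**
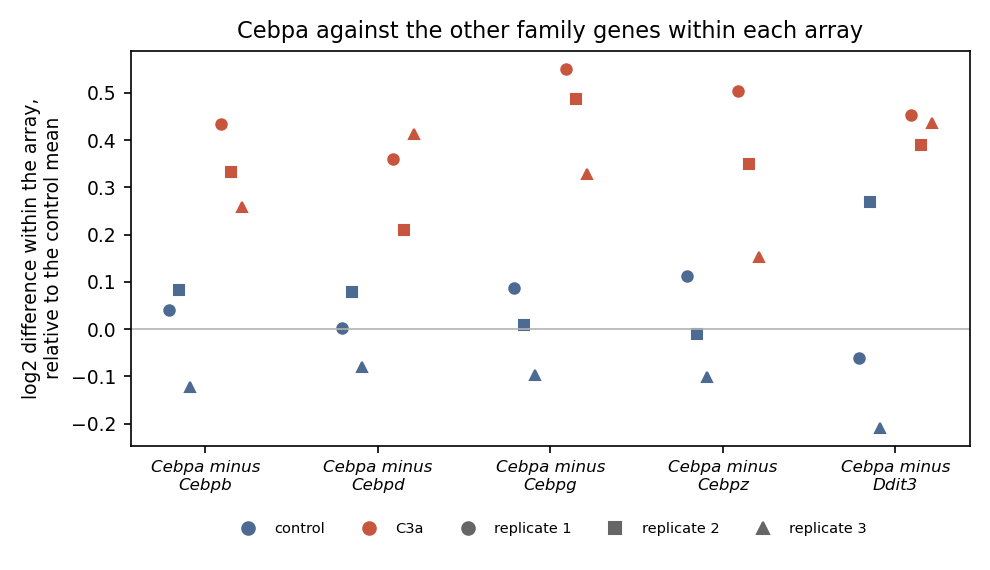
Difference between the Cebpa signal and that of each other measured family gene on the same array, in log2 units relative to the mean of the control arrays (vertical axis). Points are arrays, blue for control and red for C3a, and shapes give the replicate number. All red points lie above the blue points of the same comparison, by the smallest margin for Cebpa minus Cebpz.

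All 6 measured family genes had their lowest value on control replicate 2. This array had the highest 75th percentile, 367 intensity units, and gave the lowest value for 38.4% of all genes. Without control replicate 2 the differences were 0.43 for Cebpa, 0.04 for Cebpb, 0.06 for Cebpd, -0.04 for Cebpg, 0.10 for Cebpz and -0.14 for Ddit3. Of the 6 differences above 0, those of Cebpg and Ddit3 thus lay below 0 without this array.

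Over the 6 arrays, the members varied together to different degrees, with Pearson r from 0.36 for Cebpd and Cebpz to 0.87 for Cebpb and Ddit3. The points share the scale of their array. The genes most like Cebpa were Npepps, Zhx2, Klk1c10, RT1-T24-4 and Tmcc2, with r of 0.981 to 0.992, and 187 of 10389 genes reached 0.9. The genes most like Cebpb were Cox8b, Ndufa12, Aldh9a1, Mospd1 and Psenen, with r of 0.998 to 0.999, and 1290 genes reached 0.9. Those most like Cebpd were C8h15orf61, Mrps35, Plekhf1, Polr2f and Fuca1, with r of 0.991 to 0.998. With 6 arrays and 10389 genes such values are a description of these arrays only.

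The genes around the family were described by lists. The partners and regulators of C/EBP proteins included the bZIP factors Atf4 and Nfil3 and the Tribbles proteins, some of which lead Cebpa to degradation. Of these partners and regulators, 13 of 17 were measured and 0 passed an unadjusted p under 0.05 in limma, against 5.35% of all genes. The median difference of this list was 0.01, and the lowest was -0.42, for Trib2, at an unadjusted p of 0.0734 from limma. Of the 16 measured genes upstream of the family, 0 passed as well. Of these 16, 12 lay above 0, against 60.5% of all genes. The median of the upstream genes was 0.10, and the lowest difference was -0.15, for Stat5b. Among them Stat3, which carries cytokine signals to Cebpb and Cebpd, was 3.08 ± 0.07 (SD, n = 3) without and 3.27 ± 0.03 (SD, n = 3) with C3a, and Klf5 differed by 0.31 and Egr2 by 0.47 (unadjusted p from limma of 0.0669, 0.0591 and 0.148). The cytokine Il6 stayed under the background limit on all 6 arrays.

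Known targets of C/EBP proteins lay on both sides of 0. Of the acute phase and myeloid targets 8 of 18 were measured, with a median difference of 0.0020, and 6 of the others were not well above background on any array, among them Il1b, Ptgs2 and Nos2. The chemokine gene Ccl5 was -2.71 ± 0.17 (SD, n = 3) without and -2.36 ± 0.10 (SD, n = 3) with C3a, with an unadjusted p of 0.0218 and an adjusted p of 0.746 from limma. Like Cebpa, Ccl5 passed the background limit on 2 of the 3 controls and with C3a on all 3 arrays. Of the 1832 genes kept in this way, 10.6% were higher at an unadjusted p under 0.05 from limma. Of the adipogenic and metabolic targets, 10 of 15 were measured, with a median of -0.02. Of these 10, 0 passed an unadjusted p under 0.05 from limma, against 5.35% of all genes. Pparg, the partner of Cebpa in fat cell differentiation, gave -0.01, and Adipoq and Lep were not well above background on any array.

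The integrated stress response, of which Ddit3 is an output, was well represented, with 22 of 24 genes measured. Of these 0 passed an unadjusted p under 0.05 in limma, against 5.35% of all genes. The list median was -0.0033, with a range from -0.29 to 0.20. Above 0 lay 11 of the 22, against 60.5% of all genes. Atf4, which drives Ddit3, differed by 0.04, Ppp1r15a by 0.04, Hspa5 by 0.08, Asns by -0.07 and Trib3, a target of Ddit3, by -0.15. Of the 6 genes tied to the role of Cebpb in heart growth, all were measured and 0 passed, against the same 5.35% of all genes. Cited4, Gata4 and Srf differed by 0.01, -0.04 and 0.12.

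**Figure D5:**
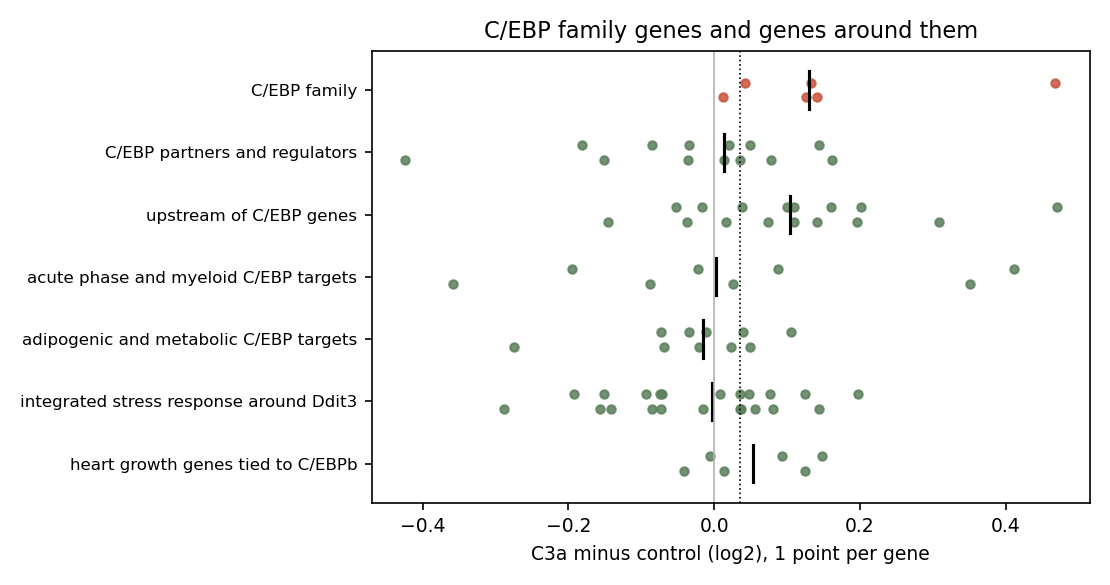
C3a minus control on the log2 scale (horizontal axis) for the measured genes of the C/EBP family (red) and of 6 lists of related genes (green), 1 point per gene. Thick lines are list medians, the grey line is 0 and the dotted line is the median of all genes, 0.04; the family median of 0.13 lies to its right, and the integrated stress genes are spread around 0.

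Since Cebpa is also expressed in macrophages and fat cells, their markers were set beside it. Of 9 macrophage markers 4 were measured, 2 of them on all 6 arrays. Itgam, an integrin of myeloid cells, was -2.73 ± 0.22 (SD, n = 3) without and -2.10 ± 0.25 (SD, n = 3) with C3a, a difference of 0.63 (unadjusted p = 0.00705, adjusted p = 0.746 from limma). Csf1r differed by 0.41 (unadjusted p = 0.131, adjusted p = 0.746 from limma), and its groups overlapped. Lyz2 and Cd68 differed by -0.09 and -0.16, Mrc1 and Cd163 were not well above background on any array, and Ptprc was so on 1 of 6. Like Cebpa, Itgam and Csf1r were well above background on 2 of 3 controls and on all 3 C3a arrays. Of the 1832 genes kept through the C3a arrays alone, 10.6% were higher at an unadjusted p under 0.05 from limma. The summed level of the 9 markers was 5.85 to 7.42 in the controls and 5.85 to 6.40 with C3a, in multiples of the 75th percentile. Lyz2, with means of 2.41 without and 2.32 with C3a on the log2 scale, was by far the brightest marker, so the sum follows mainly Lyz2. The part of macrophages in the Cebpa difference was not tested. Of 6 adipocyte markers 5 were on the array and 3, Adipoq, Lep and Cidec, were not well above background on any array. The summed level of the adipocyte markers was 0.59 to 0.86 in the controls and 0.61 to 0.83 with C3a. Fabp4 was the brightest of them, with means of -0.91 without and -0.98 with C3a on the log2 scale. Lum, a fibroblast marker, was -3.03 ± 0.28 (SD, n = 3) without and -3.57 ± 0.34 (SD, n = 3) with C3a (unadjusted p = 0.0367, adjusted p = 0.746 from limma). The groups overlapped for Lum, which was well above background on 2 of 3 controls and on all 3 C3a arrays. The other 8 fibroblast markers gave an unadjusted p above 0.05 from limma.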

How the data were processed

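Total RNA of 6 cultures of NRVCs was labelled with Cy3 and hybridised to 1-colour arrays. Intensity values were deposited by the authors as Agilent Feature Extraction 11.5.1.1 output (background-subtracted processed signal), and a table of 36638 probes holds log2 values deposited by the authors, which differed from the scaled scanner values computed here by a median of at most 0.0059 on each array. The number of arrays limits the precision.

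Control spots (4259 of 62976 per array) and outlier spots were left out, spots of a probe were averaged, and log2 signal minus the 75th percentile of the array was tested with limma 3.58.1 in R 4.3.3 over 23438 kept probes, with Benjamini-Hochberg adjustment over all of them. A probe was kept if it was well above background (in at least 50% of its spots) on all 3 arrays of a group. Symbols came from the RefSeq table of GRCr8, which matched 21109 probes (46.3%). The columns of the authors' files that belong to other samples numbered 0. Scripts were tested on simulated data, and figures were drawn with matplotlib 3.10.9.

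The members and gene lists were chosen with earlier results of these data known. Named were all family probes, in each list up to 3 genes with the largest difference at an unadjusted p under 0.05, the 5 genes most alike to Cebpa, Cebpb and Cebpd, and cell type markers beside a result. The other list genes were picked as known examples after their values were seen. A gene of the acute phase and myeloid list that this rule names is not reported here.

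The titles number the replicates and do not state that arrays of the same number belong together. Deviations from the group means correlated at 0.28, 0.32 and 0.31 between arrays of the same number and at -0.26 to -0.09 between arrays of different numbers. Deviations within a group cancel, so positive values for the same number bring negative ones for the others. What arrays of the same number share was not tested. Alternatives were other background correction (normexp, offset 50), scalings, filters, variance models, the replicate block, the methods' ANOVA, the deposited table, probe averaging and leaving out each array.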

Additional observations from a re-analysis of the deposited data

How the results depend on the processing

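The Cebpa difference ranged from 0.02 to 0.54 over the alternatives that measured it. Those that change only the variance or the test leave it as it is by construction. The adjusted p of Cebpa ran from 0.221 to 0.998. No alternative with adjustment called a family gene. The methods' ANOVA without adjustment called Cebpa (0.47), which is 1 of the 6, and 1110 probes where limma with adjustment called 0. With the replicate number as a block Cebpa stayed at 0.47 with an adjusted p of 0.221 from limma. The block changed no call of a family gene. At an unadjusted p under 0.05 limma called 780 probes higher and 587 lower, and this split turned with the processing: 41 higher and 2558 lower without normalization, 9 and 1702 with spike-in scaling, 565 and 725 with the percentile over probes measured on all arrays, 615 and 815 with cyclic loess, 357 and 677 without a filter, 366 and 645 with the filter on all 6 arrays, 695 and 808 with a trend in eBayes, and 843 and 869 without C3a replicate 2. With the block it was 1815 and 1371. The family count at that threshold fell from 1 to 0 without normalization, with spike-in scaling and where probes had to be well above background on all 6 arrays, a filter that Cebpa did not pass. Probes called after adjustment numbered 4 without normalization and 16 with spike-in scaling.

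Without normalization the differences were -0.20 for Cebpb, -0.18 for Cebpd, -0.31 for Cebpg, -0.19 for Cebpz and -0.28 for Ddit3, and with spike-in scaling -0.32 for Cebpb, -0.31 for Cebpd, -0.44 for Cebpg, -0.32 for Cebpz and -0.41 for Ddit3. The mean of both probes gave -0.0040 for Cebpb. For Cebpg normexp gave -0.015, the percentile over probes measured on all arrays -0.016, cyclic loess -0.0089 and array weights -0.032. For Ddit3 quantile normalization gave -0.060, cyclic loess -0.045 and array weights -0.063. Leaving out each array in turn gave 0.38 to 0.54 for Cebpa, 0.04 to 0.18 for Cebpb, 0.06 to 0.24 for Cebpd, -0.035 to 0.054 for Cebpg, 0.10 to 0.17 for Cebpz and -0.14 to 0.15 for Ddit3. Cebpg and Ddit3 lay below 0 without control replicate 2 and without C3a replicate 1. The cause of these shifts was not tested. Signal over background limited Cebpa, dim on every array, and Cebpe, which was not compared.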
